A study of Mus musculus with 34 samples.

Results

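The comparison described here asks whether 2 mouse leukaemia lines, 8093 and Bin-2, differ in how their gene expression had changed once they grew under nilotinib. For each gene, the change in 8093 from the start of nilotinib to the end of the course was subtracted from the same change in Bin-2. A positive line difference therefore means a higher change in Bin-2, and a negative one a lower change in Bin-2. The comparison rests on 11 of the 34 arrays of the series, assigned to groups by their labels: 3 of 8093 at start, 2 of 8093 at end, 3 of Bin-2 at start and 3 of Bin-2 at end. Both lines are pre-B acute lymphoblastic leukaemias from BCR/ABL transgenic mice, so each carries the oncogene in every group. The mice behind 8093 were on an inbred C57BL/6J background and those behind Bin-2 on a mixed background. The 8093 cells received 20 nM nilotinib and the end sample was taken on day 20, whereas the Bin-2 cells received 50 nM and the end sample was taken on day 21. Start samples are from day 0. All cells grew over irradiated mouse embryonic fibroblasts in medium with interleukin-3, and replicates were separate plates of 1 line. Each line is 1 leukaemia, so line, dose and last day cannot be told apart, and p-values measure only the spread between plates.

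BCR/ABL is a fusion kinase that keeps ABL1 permanently active, and nilotinib occupies the ATP site of that kinase. The start cultures carry the program of a pre-B cell, in which EBF1 and PAX5 switch on the surrogate light chain (Igll1, Vpreb1), the signalling chain Cd79b and the recombinase genes Rag1 and Rag2. Mast cells are myeloid cells that depend on the receptor Kit and on the factors GATA2 and MITF, display the high-affinity IgE receptor (Fcer1a, Ms4a2, Fcer1g) and store proteases and histamine in granules. GATA factors bind the core letters GATA, and several mast cell genes are known GATA2 targets.

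Promoter sequences of 4 mast cell genes are shown because these genes carried the largest group of lower changes in Bin-2 and because their windows hold the letters searched. They were read from RefSeq sequence on build GRCm38.p6 as the 250 bases before the annotated start, 5′ to 3′ on the gene's strand, with each match to AGATAA or TGATAA on either strand in capitals. Ms4a2 (chr19:11623720-11623969, minus strand), the beta chain of the IgE receptor, has 3 matches, beginning 224, 37 and 11 bases before the start. Fcer1a (chr1:173227230-173227479, minus strand), the alpha chain that binds IgE, has 1 match. Cpa3 (chr3:20242182-20242431, minus strand), the mast cell carboxypeptidase, has 1 match. Cd200r3 (chr16:44943428-44943677, plus strand), an activating receptor of mast cells and basophils, has 2 matches.
Ms4a2: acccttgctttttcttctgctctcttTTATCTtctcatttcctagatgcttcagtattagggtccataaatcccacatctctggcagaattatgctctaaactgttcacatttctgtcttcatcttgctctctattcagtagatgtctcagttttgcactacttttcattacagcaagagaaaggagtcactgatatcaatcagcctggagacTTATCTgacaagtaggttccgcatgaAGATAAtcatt
Fcer1a: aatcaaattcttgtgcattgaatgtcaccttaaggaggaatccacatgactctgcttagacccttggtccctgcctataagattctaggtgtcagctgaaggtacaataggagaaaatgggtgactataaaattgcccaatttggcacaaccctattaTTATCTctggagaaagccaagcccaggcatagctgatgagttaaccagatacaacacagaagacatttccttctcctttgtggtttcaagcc
Cpa3: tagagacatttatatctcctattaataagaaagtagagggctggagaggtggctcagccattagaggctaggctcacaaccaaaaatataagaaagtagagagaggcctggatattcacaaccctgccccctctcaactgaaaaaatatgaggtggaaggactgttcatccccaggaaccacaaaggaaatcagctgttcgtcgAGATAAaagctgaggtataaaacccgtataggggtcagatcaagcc
Cd200r3: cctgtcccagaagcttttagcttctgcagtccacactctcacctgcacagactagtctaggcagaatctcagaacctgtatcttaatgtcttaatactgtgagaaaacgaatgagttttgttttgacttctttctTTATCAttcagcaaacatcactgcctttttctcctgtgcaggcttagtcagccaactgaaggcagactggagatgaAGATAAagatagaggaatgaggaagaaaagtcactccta
Over windows from 250 bases before to 50 bases after the start, 18.6% of all 32851 RefSeq promoter windows held a GATA match. Among the mast cell genes whose change was lower in Bin-2, 29 of 37 genes matched a RefSeq window and 13 of their 39 windows (33.3%) held one. Among the pre-B, recombination and B-lineage genes whose change was higher in Bin-2, 29 of 34 genes matched and 6 of 37 windows (16.2%) held one. These matches are a description of the letters.

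At start, both lines showed the pre-B genes at high signal, with Igll1 between 11.92 and 12.16 in all 6 arrays. The 8093 end arrays went against their pre-B label, with Igll1 at 7.11 and 7.89, and their mean over the mast cell protease list was 9.45 and 9.49 against 4.50 to 4.64 in the 8093 starts. Markers of the fibroblast feeder stayed near one level, a mean over 29 genes of 5.02 to 5.33 across the 11 arrays. The macrophage list did not: its mean was 8.97 and 7.69 in the 8093 end arrays and 8.96, 9.02 and 7.78 in the Bin-2 end arrays, so the last replicate of each end group was the lower one. In bulk RNA, fewer cells of a type and less RNA per cell cannot be told apart. All values are log2 signals on the array, and probes of different genes are not compared with each other.

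The change at the nilotinib end differed between the lines for 6104 of 19938 genes (30.6%) at an adjusted p below 0.05 (limma with Benjamini-Hochberg adjustment). The change was higher in Bin-2 for 3120 genes (15.6%) and lower for 2984 genes (15%). A further requirement of a 2-fold difference left 2780 genes (13.9%), 1229 higher and 1551 lower, and 1836 genes when an offset of 32 was added to the signal before the log was taken. The median line difference over all genes was 0.13 on the log2 scale. Most of these genes had moved in 8093 and not in Bin-2: 2524 fell in 8093 and 2323 rose in 8093 without a call in Bin-2. Another 422 rose in both lines but by less in Bin-2, and 334 fell in both but by less in Bin-2. Only the Bin-2 change was called for 91 genes that rose and 58 that fell. Of the 6104 genes, 5789 (94.8%) had the larger absolute change in 8093. Within 8093, 8866 genes (44.5%) differed between end and start, 3898 up (19.6%) and 4968 down (24.9%). Within Bin-2, 1772 genes (8.89%) did, 987 up (4.95%) and 785 down (3.94%), a count that was 1120 without the first and 2170 without the third Bin-2 end array. The share of higher calls within Bin-2 was 55.7%, and 44.8% after the median of each array was subtracted.

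**Figure D1:**
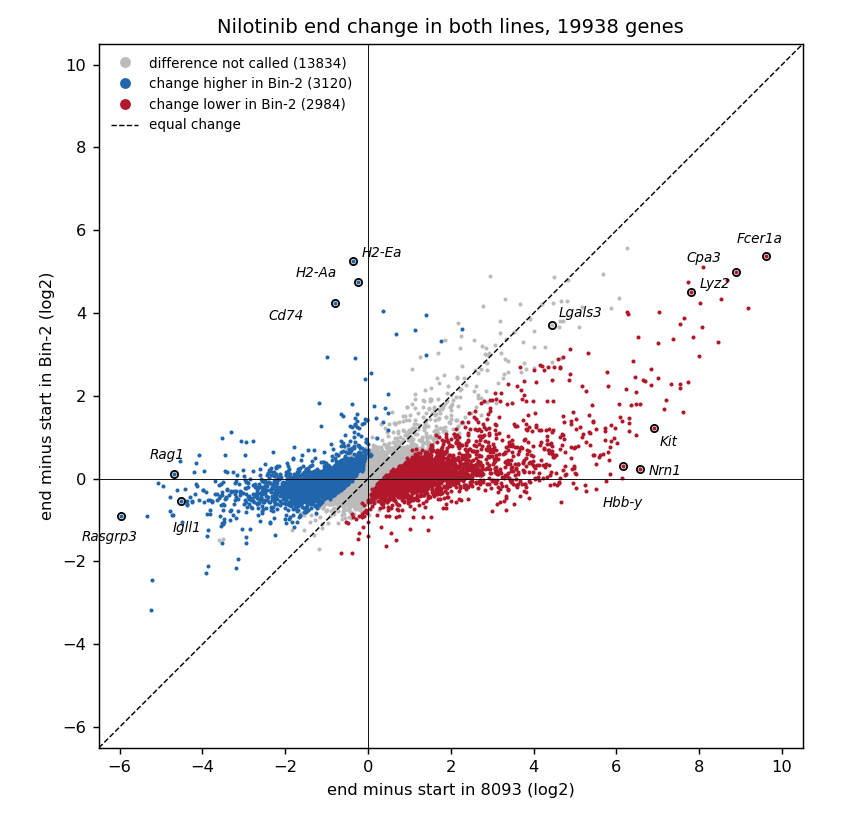
Each of 19938 genes is plotted by its end minus start change in 8093 (horizontal, log2) and in Bin-2 (vertical, log2), coloured by whether the difference between the changes was called, with named genes circled. The cloud is wide along the 8093 axis (SD 1.03 over genes) and narrow along the Bin-2 axis (SD 0.42), and the MHC class II genes H2-Ea, H2-Aa and Cd74 lie above it.

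Mast cell genes rose in both lines and by less in Bin-2. Of 17 measured protease and granule genes, 16 had a lower change in Bin-2, with a list median of -4.25 against 0.13 over all genes, and of 21 genes of the IgE receptor, Kit and their regulators all 21 did, with a median of -4.18. Within Bin-2, 10 of the 17 and 13 of the 21 genes were higher at end than at start, and within 8093, 13 and 21 were. Kit, the receptor for stem cell factor, was 5.80, 5.93 and 5.63 in the 8093 start arrays, 12.71 and 12.67 in the 8093 end arrays, 7.58, 7.69 and 7.62 in the Bin-2 start arrays and 8.90, 8.92 and 8.76 in the Bin-2 end arrays. The starts of Bin-2 lay above those of 8093 and the order was turned at the end, with no overlap between any of the 4 groups. Kit rose 119-fold in 8093 and 2.35-fold in Bin-2, a line difference of -5.67 ± 0.27 (SE; adjusted p = 4.81e-16).

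Ms4a2 stood at 2.84, 2.63 and 3.36 in the 8093 starts and 2.69, 2.92 and 3.00 in the Bin-2 starts, near the lowest signals of the array in both lines. It reached 12.23 and 12.01 in the 8093 ends and 7.07, 7.32 and 6.61 in the Bin-2 ends. The ends of both lines were clear of all starts, and the Bin-2 ends stayed far under those of 8093 (line difference -5.05 ± 0.49, adjusted p = 1.31e-09). Fcer1a went from 2.64, 3.21 and 3.85 to 12.67 and 13.02 in 8093 and from 3.69, 3.44 and 3.05 to 8.66, 9.28 and 8.41 in Bin-2. Its line difference was -4.22 ± 0.52 (adjusted p = 1.46e-07). Cd200r3 rose from 2.92, 2.72 and 3.02 to 10.08 and 10.00 in 8093, and from 3.13, 3.12 and 2.72 to 4.82, 5.10 and 4.08 in Bin-2. The Bin-2 ends lay above their starts without overlap and far below the 8093 ends, and the line difference was -5.48 ± 0.44.

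The granule genes ran in the same order. Cpa3 was 4.73, 4.22 and 5.15 in the 8093 starts, 13.67 and 13.50 in the 8093 ends, 6.36, 6.64 and 6.48 in the Bin-2 starts and 11.52, 11.66 and 11.25 in the Bin-2 ends. Bin-2 began above 8093 and ended below it, with a line difference of -3.90 ± 0.39 (adjusted p = 1.96e-09). Hdc, which makes histamine from histidine, rose by 6.03 in 8093 and by 0.87 in Bin-2 (line difference -5.16 ± 0.30). Slc18a2, the pump that loads amines such as histamine into granules, rose by 8.46 and 3.31 (-5.15 ± 0.41). Mcpt4, a chymase, rose by 7.53 and 2.29 (-5.23 ± 0.51), with the limit that the chymase genes resemble each other and may share probes. Gata2 was 4.64, 4.59 and 4.49 in the 8093 starts, 11.28 and 11.27 in the 8093 ends, 5.05, 4.55 and 4.67 in the Bin-2 starts and 7.13, 7.30 and 6.95 in the Bin-2 ends, a line difference of -4.33 ± 0.36 (adjusted p = 5.41e-11). This transcription factor is required for mast cell development, and its Bin-2 ends lay between the starts and the 8093 ends.

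The 3 genes of the granule list that fell in Bin-2, named after their values were seen, encode granule proteins of basophils, neutrophils or eosinophils. Mcpt8, the basophil protease, went from 5.95, 6.06 and 5.96 to 4.39, 4.08 and 4.65 in Bin-2, and from 4.29, 4.33 and 4.15 to 4.54 and 4.84 in 8093. Ctsg, cathepsin G, fell by 1.79 and Prg2, the eosinophil major basic protein, fell by 0.83 in Bin-2, and neither change in 8093 passed the test. All 3 were brighter in Bin-2 than in 8093 at start.

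**Figure D2:**
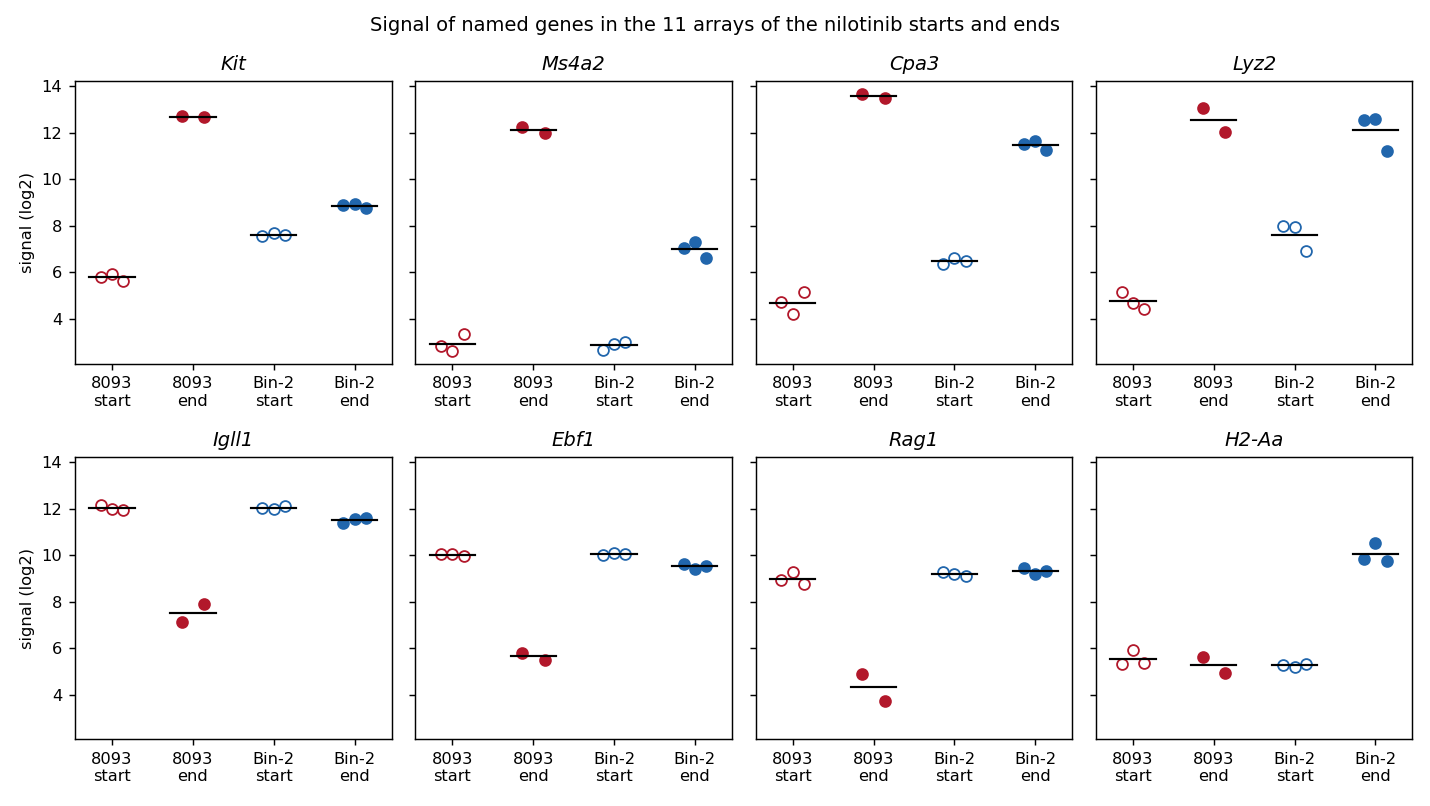
Log2 signal of 8 genes in each of the 11 arrays, by line (red 8093, blue Bin-2) and time (open start, filled end), with a bar at each group mean. Kit, Ms4a2 and Cpa3 end higher in 8093, Lyz2 ends at overlapping levels, Igll1, Ebf1 and Rag1 are lowest in the 8093 end arrays, and H2-Aa is highest in the Bin-2 end arrays.

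Several of the 12 genes with the largest lower changes in Bin-2 stayed near their start signal in Bin-2. Nrn1, a cell surface protein first described in neurons, was 3.87, 3.49 and 4.10 in the 8093 starts, 10.17 and 10.61 in the 8093 ends, 3.43, 3.51 and 4.21 in the Bin-2 starts and 3.91, 3.63 and 4.33 in the Bin-2 ends. The Bin-2 ends overlapped all starts, and the line difference was -6.33 ± 0.30 (adjusted p = 5.51e-16). Tek, the angiopoietin receptor TIE2, was 9.27 and 9.51 in the 8093 ends and 3.30 to 3.87 in the other 9 arrays (-5.80 ± 0.25). Igfbp5, which binds insulin-like growth factors, was 10.82 and 10.49 in the 8093 ends and 4.33 to 4.81 elsewhere (-6.10 ± 0.29). The same pattern of signal in the 8093 ends alone was seen for Hbb-y, an embryonic beta-like globin, at 8.94 and 9.63 against 2.87 to 3.94 (-5.85 ± 0.33). Mrgprb2, a mast cell receptor for cationic peptides, was 7.86 and 7.46 in the 8093 ends against 2.26 to 2.96 in the other arrays (-5.55 ± 0.32). Where a group lies at the dimmest signals the size of the difference depends on the floor: with the offset of 32 it was -2.70 for Mrgprb2, -4.82 for Nrn1 and -5.13 for Kit, with the same direction and call. Ccr1l1, a receptor of the CC chemokine receptor family, also had no call within Bin-2 (-5.40). Cyp4a12a (-5.98), Akr1c12 (-5.44), Maob (-5.40) and Rnf128 (-5.34) completed the 12, and these 4 rose in Bin-2 as well. Maob encodes a monoamine oxidase and Rnf128 a ubiquitin ligase known from unresponsive T cells. Cyp4a12a has a near-identical neighbour, so its probes may report either gene.

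Macrophage genes rose in both lines. Of 25 measured, 24 rose in 8093 and 24 in Bin-2, with list medians of 2.87 and 2.62. The line difference was called lower for 5 and higher for 1, beside 15% and 15.6% of all genes. Its list median was -0.36. Without the first 8093 end array that median was 0.34, with 4 called each way, and without the second 8093 end array 10 were lower. Lyz2, lysozyme, was 5.16, 4.68 and 4.45 in the 8093 starts, 13.08 and 12.04 in the 8093 ends, 7.62 ± 0.63 (SD, n = 3) in the Bin-2 starts and 12.55, 12.61 and 11.22 in the Bin-2 ends. The ends of both lines overlapped, while the Bin-2 starts lay above those of 8093, and the line difference was -3.29 ± 0.80 (adjusted p = 0.0017). The difference between the lines at the end alone was -0.43 ± 0.60 (adjusted p = 0.637).

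Adgre1, an adhesion G protein-coupled receptor used to mark mouse macrophages, was the 1 called higher. It was 7.03, 7.13 and 7.31 in the 8093 starts, 8.42 and 7.23 in the 8093 ends, 4.84, 4.45 and 4.48 in the Bin-2 starts and 8.38, 8.98 and 6.87 in the Bin-2 ends. Here the 8093 starts were already high and the ends of both lines overlapped (2.82 ± 0.59, adjusted p = 0.000356). The difference was 2.22 without the second 8093 end array and 3.42 without the third Bin-2 end array. Mpeg1, the pore-forming perforin-2 of macrophages, had a difference of -2.46 ± 0.55, which was -1.61 and -3.31 without the first and the second 8093 end array. Cx3cr1, the fractalkine receptor, had a difference of -2.15 ± 0.33. Lgals3, galectin-3, is another gene of macrophages and mast cells. It went from 5.63, 5.85 and 5.58 to 10.74 and 9.54 in 8093 and from 6.23, 6.18 and 6.12 to 10.69, 10.18 and 8.80 in Bin-2. It rose by 4.46 in 8093 and 3.71 in Bin-2, with overlapping ends, and the difference of -0.75 ± 0.52 did not pass the test (adjusted p = 0.312, 95% interval -1.81 to 0.32).

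Markers of other lineages were called in both directions, except that no neutrophil or eosinophil gene was called lower. For comparison, 15.6% of all genes were called higher and 15% lower. Of 17 neutrophil and eosinophil genes 2 were called higher, or 1 without either 8093 end array or the second Bin-2 end array, and the list mean was 4.51 and 4.36 in the 8093 ends and 4.64, 4.82 and 4.72 in the Bin-2 ends. Of 17 T and NK cell genes, 3 were higher and 1 lower, but Cd3g, a chain of the T cell receptor complex and 1 of the 3, lost its call in 18 of 20 alternatives. That lower gene was Eomes, a T-box factor, at 6.24 and 6.08 in the 8093 ends against 3.34 to 4.11 in the other arrays (-2.18 ± 0.23). Of 17 erythroid and megakaryocyte genes 7 were lower and 2 higher. Itga2b, the CD41 integrin of megakaryocytes and early mast cells, rose by 6.65 in 8093 and 2.39 in Bin-2 (-4.26 ± 0.34). Epor, the erythropoietin receptor, rose by 2.78 in 8093, and its Bin-2 change of 0.11 did not pass the test (-2.67 ± 0.28). Tfrc, the transferrin receptor of dividing cells, fell by 2.07 in 8093 (1.90 ± 0.17). Of 29 fibroblast and matrix genes 2 were higher and 1 lower, and Col1a1, a main collagen of the feeder, differed by 0.08 ± 0.19 (adjusted p = 0.80). The lower one was Thbs1, thrombospondin-1, at 11.39 and 9.37 in the 8093 ends and 9.32, 9.18 and 9.11 in the Bin-2 ends (-3.36 ± 0.46, or -2.34 and -4.37 without the first and the second 8093 end array).

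Genes of antigen presentation by MHC class II rose in Bin-2, while the classical class II chains were near or below their start level in 8093. Of 12 genes, 6 had a higher change in Bin-2 and 2 a lower one, with a list median of 1.05. The shares over all genes were 15.6% and 15%. Within Bin-2, 9 rose and 1 fell, while within 8093, 4 rose and 2 fell. H2-Ea, the alpha chain of I-E, was 4.23, 4.52 and 4.20 in the 8093 starts, 3.89 and 4.04 in the 8093 ends, 4.67, 4.48 and 4.52 in the Bin-2 starts and 9.70, 10.23 and 9.49 in the Bin-2 ends. Only the Bin-2 ends stood apart, and the line difference of 5.60 ± 0.32 was the largest positive one among the named genes (adjusted p = 1.93e-14). C57BL/6 mice carry a known promoter deletion in H2-Ea, and for this gene strain and line cannot be told apart.

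H2-Aa, the alpha chain of I-A, which C57BL/6 mice do express, was 5.30, 5.90 and 5.35 in the 8093 starts and 5.61 and 4.93 in the 8093 ends. It was 5.28, 5.19 and 5.32 in the Bin-2 starts and 9.82, 10.52 and 9.74 in the Bin-2 ends (5.01 ± 0.46, adjusted p = 4.97e-10). The 8093 ends overlapped their starts, and the Bin-2 ends lay far above everything else. Cd74, the invariant chain that guides class II molecules to the endosome, was 6.69, 6.87 and 6.93, then 6.70 and 5.36, in 8093, and 5.59, 5.61 and 6.26, then 10.60, 10.35 and 9.19, in Bin-2. Its difference was 5.03 ± 0.42, and 4.37 and 5.70 without the second and the first 8093 end array. H2-Eb1 (3.24 ± 0.29), H2-Ab1 (2.20 ± 0.36) and Ciita (1.31 ± 0.23), the master switch of class II transcription, were the other 3 called higher, named here because they complete the group after its values were seen.

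The 2 lower genes encode H2-O, an inhibitor of peptide loading. H2-Ob rose in 8093 from 5.66, 5.79 and 5.70 to 8.42 and 8.76, while in Bin-2 it was 7.22, 7.17 and 7.03 and then 7.53, 7.53 and 7.47 (-2.50 ± 0.20). H2-Oa differed by -1.12 ± 0.25. Macrophages, dendritic cells and B cells all can express class II. The macrophage list rose alongside in both lines, with all 5 end arrays above all 6 starts on the list mean (5.05 to 5.86 at start, 7.69 to 9.02 at end). Its part in the class II difference was not tested.

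**Figure D3:**
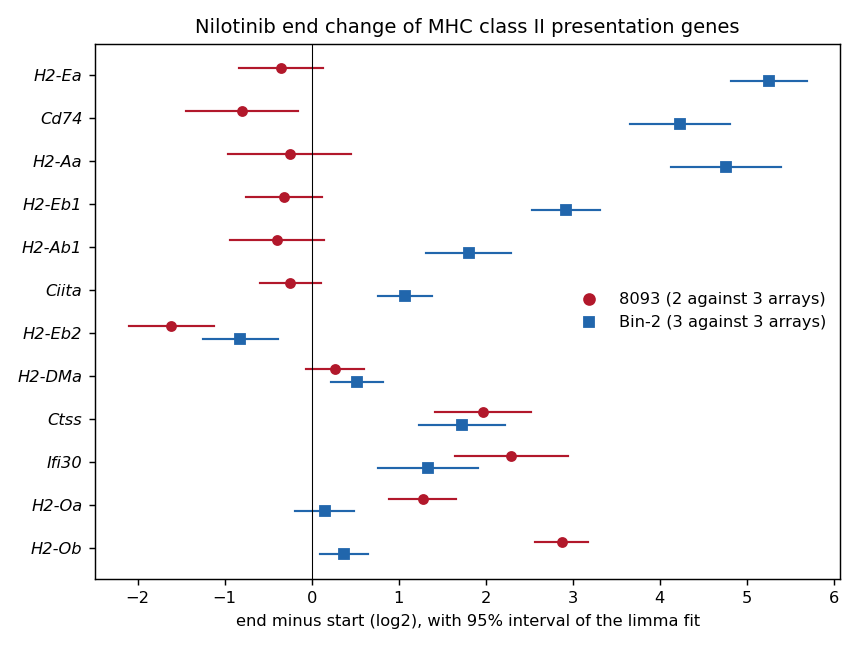
Change from start to end (horizontal, log2, with the 95% interval of the limma fit) of 12 MHC class II presentation genes in 8093 (red circles) and Bin-2 (blue squares). The 6 upper genes changed by 1.07 to 5.25 in Bin-2 and by -0.80 to -0.24 in 8093, whereas H2-Ob and H2-Oa rose in 8093.

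The pre-B program fell in 8093 and was nearly level in Bin-2. Of 22 genes of the pre-B receptor and its signalling, 12 had a higher change in Bin-2 and 4 a lower one (list median 0.81). Of 21 B-lineage transcription factors, 16 were higher and 2 lower (median 1.37), and of 14 recombination genes, 6 were higher and 2 lower. For all genes these shares were 15.6% and 15%. Igll1, the lambda5 chain of the pre-B receptor, was 12.16, 11.98 and 11.92, then 7.11 and 7.89, in 8093, and 12.04, 11.99 and 12.09, then 11.36, 11.55 and 11.58, in Bin-2. It fell 23-fold in 8093 and 1.45-fold in Bin-2, and only the 8093 ends were far from the others (3.98 ± 0.19, adjusted p = 5.51e-16). Vpreb1, the partner of lambda5, was 5.34 and 5.94 in the 8093 ends and 9.78 to 10.35 in the other 9 arrays (4.16 ± 0.28). Cd79b, a signalling chain of the receptor, was 5.61 and 5.57 against 9.62 to 10.07 (4.04 ± 0.21). Mzb1, a chaperone of immunoglobulin assembly, had a line difference of 4.76 ± 0.22. Blk, a SRC family kinase of B cells, had a difference of 3.11 ± 0.18.

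Ebf1, the early B cell factor, was 10.05, 10.03 and 9.97 in the 8093 starts, 5.79 and 5.51 in the 8093 ends, 10.01, 10.10 and 10.06 in the Bin-2 starts and 9.61, 9.40 and 9.53 in the Bin-2 ends. The starts of both lines coincided, the Bin-2 ends lay slightly under them, and the 8093 ends lay far lower (3.82 ± 0.20). Pax5, which holds cells in the B lineage, was 8.51, 8.51 and 8.13, then 5.57 and 5.25, in 8093, and 8.51, 8.41 and 8.27, then 9.60, 8.69 and 8.61, in Bin-2. The Bin-2 ends were all above their starts (3.54 ± 0.28). Lef1 (3.74 ± 0.18), a WNT-responsive factor of early B cells, and Sox4 (3.72 ± 0.21), needed for pro-B cell survival, showed the same order. Rag1, a subunit of the recombinase, was 8.94, 9.28 and 8.75, then 4.87 and 3.75, in 8093, and 9.26, 9.18 and 9.10, then 9.43, 9.18 and 9.30, in Bin-2. Its Bin-2 values overlapped from start to end (4.81 ± 0.32, adjusted p = 4.18e-13). Rag2, the other subunit, differed by 2.09 ± 0.34. Dntt, the terminal transferase that adds bases at joins, differed by 2.62 ± 0.27, and Bin-2 already exceeded 8093 by 3.28 at start.

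A few B-lineage genes went the other way. Prkcb, the protein kinase C of B cell receptor signalling, rose in 8093 from 8.11, 7.94 and 7.89 to 10.36 and 10.44, and in Bin-2 from 6.86, 6.98 and 6.99 to 7.54, 7.46 and 7.14 (-1.97 ± 0.17). Btk (-1.58 ± 0.16), a kinase used by both B cells and mast cells, and Bank1 (-1.65 ± 0.26), an adaptor, also rose in 8093. Id2, an inhibitor of E proteins, rose by 3.08 in 8093 and by 1.29 in Bin-2 (-1.79 ± 0.25). Xrcc4, a ligase partner in DNA end joining, differed by -1.38 ± 0.25.

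Further genes were among the 12 with the largest higher changes. Rasgrp3, an exchange factor that loads Ras with GTP, was 9.27, 9.54 and 9.44 in the 8093 starts, 3.44 and 3.43 in the 8093 ends, 6.62, 6.93 and 7.09 in the Bin-2 starts and 5.58, 5.53 and 6.81 in the Bin-2 ends (5.07 ± 0.40). Bin-2 started lower and lost little, and 8093 dropped to the dimmest signals. Lmo7, a LIM domain protein, was 8.54, 8.63 and 8.53 in the 8093 starts and 3.27 to 3.98 in all other arrays. The difference for Lmo7 (4.95 ± 0.24) thus came from a start level that Bin-2 never had, and the lines at end differed by -0.01. Vat1l (4.98 ± 0.29), Myl4 (4.65 ± 0.26), a myosin light chain, Tmem119 (4.45 ± 0.22), a membrane protein used as a microglial marker, and Flt3 (4.52 ± 0.20), the receptor of lymphoid progenitors, fell in 8093. Flt3 was 4.65 and 4.21 in the 8093 ends and 8.51 to 9.16 elsewhere.

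Genes of cell division, ribosome production and respiration fell in 8093 and were near their start level in Bin-2. Of 26 mitosis genes 22 had a higher change in Bin-2, of 30 DNA replication genes 29 did and of 28 ribosome biogenesis genes 26 did. Without the first 8093 end array these counts were 17, 23 and 24. Of 29 oxidative phosphorylation genes 20 were higher, or 13 higher and 1 lower without the first 8093 end array. All 26 mitosis and all 30 replication genes fell in 8093, against 1 and 3 in Bin-2. The replication list mean was 9.03, 8.91 and 8.86 in the 8093 starts, 7.41 and 7.91 in the 8093 ends, 8.93, 8.94 and 8.79 in the Bin-2 starts and 8.70, 8.62 and 8.80 in the Bin-2 ends. The Bin-2 ends overlapped their starts, while the 8093 ends lay below every other array and apart from each other. Gins1, part of the replicative helicase, went from 7.91, 7.95 and 7.75 to 4.81 and 5.69 in 8093 and from 7.81, 7.89 and 7.68 to 7.11, 7.30 and 7.51 in Bin-2 (2.13 ± 0.25, adjusted p = 4.84e-08). The helicase subunits Mcm7 (1.77 ± 0.24) and Mcm5 (1.59 ± 0.17) followed it. Cdc20 (1.44 ± 0.24), the activator of the anaphase-promoting complex, and the mitotic kinases Aurka (1.40 ± 0.18) and Bub1 (1.34 ± 0.19) led the mitosis list. Gnl3 (1.57 ± 0.16), nucleostemin, led the ribosome list, and Cyc1 (1.32 ± 0.14), cytochrome c1, led the respiratory one. The labels give a viability of about 90% for the end samples of both lines, and the growth rate was not analysed here.

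Readouts of cytokine and kinase signalling split in both directions. Of 22 genes of STAT5 feedback and cytokine receptors, 11 had a lower change in Bin-2 and 3 a higher one. Over all genes the shares were 15% and 15.6%. Cish, a STAT5-induced inhibitor of cytokine receptors, was 6.40, 6.74 and 6.51, then 8.59 and 8.94, in 8093, and 6.43, 6.42 and 6.41, then 6.93, 6.87 and 6.70, in Bin-2 (-1.80 ± 0.21, adjusted p = 4.06e-08). Its Bin-2 ends lay just above the Bin-2 starts, and the Bin-2 rise of 0.41 did not pass the test. Socs2, another STAT5 target, moved the opposite way: it was 11.29, 11.22 and 11.26, then 9.12 and 9.04, in 8093, and 10.75, 10.78 and 10.74, then 10.97, 10.80 and 10.62, in Bin-2 (2.21 ± 0.17). Il7r, the receptor for interleukin-7, went from 10.54, 10.46 and 10.30 to 8.64 and 7.75 in 8093 and was 10.79 to 11.26 in all 6 Bin-2 arrays (2.49 ± 0.25). The shared beta chains of the interleukin-3 receptor rose in both lines and less in Bin-2. Csf2rb2 rose by 5.78 and 2.59 (-3.20 ± 0.30) and Csf2rb by 3.52 and 1.32 (-2.20 ± 0.24), and the similarity of the pair means that probes may be shared.

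Of 16 BCL2 family genes, 3 were higher and 2 lower, shares close to the 15.6% and 15% over all genes. Bcl2l11, which encodes the death activator BIM, was 9.02, 9.17 and 8.85, then 7.05 and 6.46, in 8093, and 7.78, 7.82 and 7.88, then 8.05, 7.93 and 7.97, in Bin-2 (2.42 ± 0.19). Bin-2 began lower and was level, so the order of the lines turned between start and end. Pmaip1, the death activator NOXA, differed by 1.08 ± 0.19, and Bid by -1.02 ± 0.18. Bcl2 differed by -0.57 ± 0.18 (adjusted p = 0.015), a call lost in 3 of the alternatives, among them without the first 8093 end array (adjusted p = 0.0895). Mcl1 (-0.41 ± 0.22, adjusted p = 0.17, 95% interval -0.87 to 0.04) and Bcl6 (-0.58 ± 0.28, adjusted p = 0.13) did not pass, though each passed without the second 8093 end array. Of 15 SRC and ABL family kinases 4 were higher and 2 lower, or 7 and 2 under quantile normalization. Abl1 was 9.46, 9.38 and 9.45, then 8.55 and 8.68, in 8093, and 9.18 to 9.35 in all 6 Bin-2 arrays (0.84 ± 0.14, adjusted p = 1.3e-05). Whether that probe set reads the transgene as well as the mouse gene is not known here. Bcr differed by 0.56 ± 0.23 (adjusted p = 0.068).

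Of 21 FOXO factors and targets, 8 were lower and 5 higher. Txnip, an inhibitor of thioredoxin and of glucose uptake, went from 9.26, 9.09 and 8.98 to 12.03 and 12.35 in 8093 and from 9.57, 9.61 and 9.67 to 9.77, 10.04 and 9.68 in Bin-2 (-2.87 ± 0.17). Klf3 (-1.82 ± 0.18) and Irs2 (-1.38 ± 0.22), the insulin receptor substrate, followed. Of 27 genes of ERK feedback and Ras exchange, 8 were higher and 8 lower. These counts were 8 and 7 without the first 8093 end array, and 7 and 12 without the second. Rasgrp2 (3.26 ± 0.18), a further Ras family exchange factor, and Dusp5 (2.59 ± 0.17), a phosphatase that shuts off ERK, fell in 8093. Ier3, an immediate early gene, rose by 4.05 in 8093 and by 1.24 in Bin-2 (-2.81 ± 0.36). Myc was 10.36, 10.06 and 10.08, then 9.17 and 8.89, in 8093, and 10.54, 10.53 and 10.73, then 11.06, 10.42 and 10.30, in Bin-2 (1.13 ± 0.23, adjusted p = 0.00021). Mycn, a relative of Myc, fell in Bin-2 from 6.39, 6.39 and 6.58 to 5.10, 4.40 and 5.73, and was 7.01, 6.81 and 7.03, then 6.78 and 7.13, in 8093 (-1.38 ± 0.32). Of 23 p53 targets 4 were higher and 4 lower, again close to the 15.6% and 15% over all genes.

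**Figure D4:**
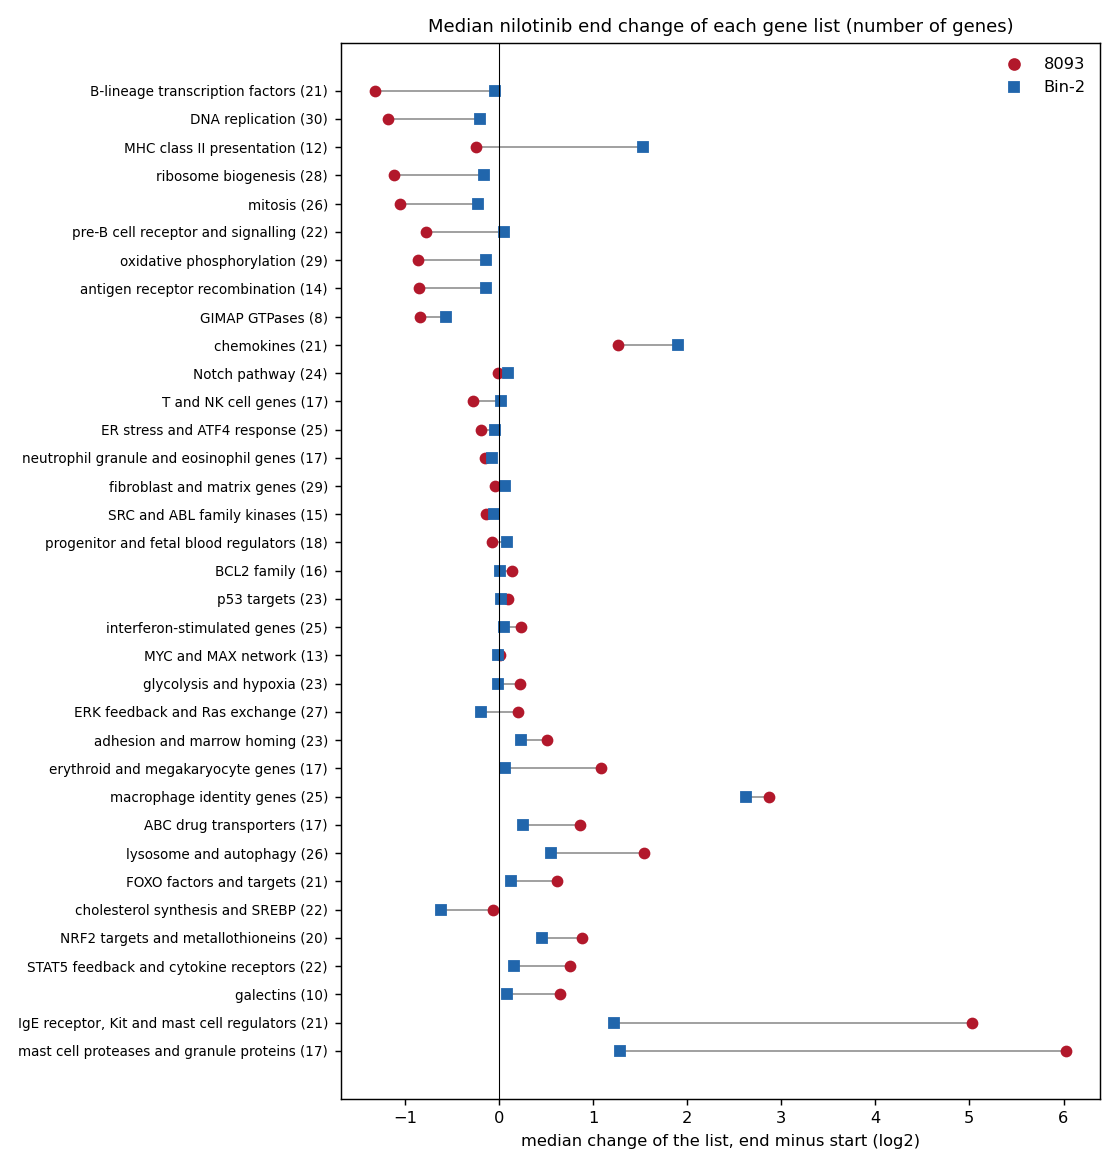
Median change from start to end (horizontal, log2) of 35 gene lists in 8093 (red circles) and Bin-2 (blue squares), ordered by the median line difference, with the number of genes in brackets. The 2 mast cell lists moved by 6.03 and 5.03 in 8093 and 1.29 and 1.22 in Bin-2, and MHC class II moved by -0.25 and 1.53.

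Cholesterol synthesis was a group that fell in Bin-2 more than in 8093. Of 22 genes 10 had a lower change in Bin-2 and 1 a higher one; 17 fell in Bin-2, and 4 rose and 7 fell in 8093. Msmo1, a sterol oxidase of the pathway, went from 10.06, 9.89 and 9.89 to 11.31 and 10.76 in 8093 and from 10.67, 10.72 and 10.81 to 9.72, 9.81 and 9.87 in Bin-2 (-2.02 ± 0.19, adjusted p = 7.46e-10). Start and end did not overlap in either line, and the directions were opposite. Idi1, the isomerase that feeds isoprenoid synthesis, went from 9.77, 9.80 and 9.81 to 10.81 and 10.26 in 8093 and from 10.25, 10.36 and 10.38 to 9.29, 9.32 and 9.65 in Bin-2 (-1.66 ± 0.22). Insig1, the sterol-responsive brake of SREBP, fell by 1.17 in Bin-2, and its 8093 change of 0.32 did not pass (-1.48 ± 0.18). Scap, the escort of SREBP, was the 1 higher gene (0.69 ± 0.12).

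Of 23 glycolysis and hypoxia genes 7 were higher and 5 lower, beside 15.6% and 15% of all genes. Egln3, an oxygen-sensing prolyl hydroxylase, fell by 4.49 in 8093 and by 1.04 in Bin-2 (3.45 ± 0.21). Slc2a1, the glucose transporter GLUT1, rose in 8093 from 8.33, 8.18 and 8.46 to 11.47 and 11.68, and was 7.97, 7.91 and 8.08, then 8.41, 8.90 and 8.45, in Bin-2 (-2.65 ± 0.31). Aldoc, an aldolase, differed by -3.75 ± 0.29. Of 25 genes of the ER stress and ATF4 response 8 were lower and 7 higher. The higher ones included amino acid synthesis: Asns, asparagine synthetase, was 9.53, 9.13 and 9.39, then 5.64 and 5.69, in 8093, and 4.18 to 5.00 in all 6 Bin-2 arrays (3.62 ± 0.26). All Bin-2 arrays lay below the 8093 ends. Phgdh, the first enzyme of serine synthesis, fell by 3.60 in 8093 and by 0.47 in Bin-2 (3.13 ± 0.21). Among the lower ones, Slc7a11, the cystine importer, rose by 4.35 in 8093 to the level Bin-2 had from the start: 9.33 and 8.09 in the 8093 ends, 8.23, 8.08 and 8.19 in the Bin-2 starts and 9.01, 9.35 and 8.18 in the Bin-2 ends (-3.67 ± 0.56, or -3.05 and -4.29 without the first and the second 8093 end array). Ppp1r15a, the GADD34 phosphatase subunit, differed by -2.12 ± 0.19.

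Lysosomal genes rose in both lines, 20 of 26 in 8093 and 16 in Bin-2, and 11 had a lower change in Bin-2 and 1 a higher one. Cd63, a granule and lysosome tetraspanin, went from 3.81, 3.93 and 4.54 to 10.15 and 10.61 in 8093 and from 3.33, 3.48 and 3.17 to 7.65, 8.06 and 6.24 in Bin-2 (-2.30 ± 0.65, adjusted p = 0.00626). Ctsd, cathepsin D, rose by 3.76 and 2.03 (-1.73 ± 0.37). Of 20 NRF2 targets and metallothioneins 7 were lower and 3 higher, beside 15% and 15.6% of all genes. Me1, the malic enzyme that supplies NADPH, was 8.86 and 8.75 in the 8093 ends and 3.74 to 4.44 in the other arrays (-4.45 ± 0.24). Nqo1, a quinone reductase, was 5.49 and 6.69 against 3.34 to 3.98 (-2.28 ± 0.29, or -2.88 and -1.67 without the first and the second 8093 end array).

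Of 17 ABC drug transporters 7 were lower and 2 higher, beside 15% and 15.6% of all genes. Abcb1b, which encodes a P-glycoprotein that exports many drugs, went from 6.08, 6.07 and 6.12 to 9.27 and 9.07 in 8093 and from 5.53, 5.82 and 5.63 to 6.64, 6.46 and 6.84 in Bin-2. Both lines rose without overlap between start and end, and the rise was larger in 8093 (-2.10 ± 0.25, adjusted p = 8.48e-08). Its close relative Abcb1a differed by -1.83 ± 0.26, with probes that may be shared. Abcg2, the breast cancer resistance protein, differed by 0.37 ± 0.26 (adjusted p = 0.32, 95% interval -0.16 to 0.90), and passed the test only without the first 8093 end array.

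Of 23 adhesion and marrow homing genes 7 were higher and 7 lower, beside 15.6% and 15% of all genes. Cxcr4, the receptor that retains cells in marrow, was 11.39, 11.48 and 11.42, then 9.85 and 8.29, in 8093, and 11.30 to 11.74 in all 6 Bin-2 arrays (2.26 ± 0.30, or 3.04 and 1.48 without the first and the second 8093 end array). Ccr2, a monocyte chemokine receptor, went from 4.70, 4.25 and 4.76 to 8.70 and 7.01 in 8093 and was 9.52 to 10.45 in all 6 Bin-2 arrays (-3.83 ± 0.43, or -2.99 and -4.68 without the first and the second 8093 end array). Bin-2 thus carried Ccr2 signal before treatment. Pecam1, the adhesion molecule CD31, differed by -2.13 ± 0.18. Chemokine genes rose in both lines, 12 of 21 in 8093 and 16 in Bin-2, against 19.6% and 4.95% of all genes. The line difference was called for 5 of the 21, beside 30.6% of all genes. That count was 1 under quantile normalization, 2 without the first Bin-2 end array and 3 without the second 8093 end array. Without the third Bin-2 end array it was 7, all higher. Ccl22, a chemokine of dendritic cells and macrophages, fell by 0.89 in 8093 and rose by 0.84 in Bin-2 (1.73 ± 0.28).

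Of 18 progenitor genes, 5 were lower and 3 higher, beside 15% and 15.6% of all genes. Meis1, a homeobox factor of stem and progenitor cells, was 9.79 and 9.84 in the 8093 ends and 3.77 to 5.17 in the other arrays (-4.98 ± 0.26). Cd34, a marker of progenitors and mast cells, went from 3.79, 4.03 and 4.35 to 10.95 and 11.18 in 8093 and from 4.21, 4.33 and 3.97 to 7.28, 7.64 and 7.42 in Bin-2 (-3.73 ± 0.35). Mecom, which encodes EVI1, had no call within Bin-2 (-3.16 ± 0.26). Of 24 Notch pathway genes 5 were higher and 3 lower, beside 15.6% and 15% of all genes. Notch1 (2.33 ± 0.21) and its ligand gene Jag2 (2.51 ± 0.20) fell in 8093, and Notch2 (-1.65 ± 0.21) rose there. Of 8 GIMAP GTPases, lymphocyte survival proteins, 3 were higher and 3 lower, a count of 6 that was 3 without the first 8093 end array and 4 without the second one or without the first Bin-2 end array. Gimap4 was 9.20, 9.14 and 9.21, then 5.25 and 4.94, in 8093, and 11.32, 11.37 and 11.30, then 10.63, 10.69 and 11.10, in Bin-2 (3.56 ± 0.18). Of 10 galectins 5 were lower and 1 higher, a total that was 4 without the second 8093 end array. Lgals9, galectin-9, rose by 0.59 in 8093 and fell by 0.49 in Bin-2 (-1.08 ± 0.15).

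For 124 genes the change was called in both lines and in opposite directions: 43 rose in Bin-2 and fell in 8093, and 81 fell in Bin-2 and rose in 8093. Plet1, a placental and keratinocyte surface protein, was 5.16, 5.21 and 5.38, then 4.21 and 3.92, in 8093, and 4.11, 4.56 and 4.59, then 5.84, 6.52 and 6.39, in Bin-2 (3.02 ± 0.29). Start and end did not overlap in either line. Axl, a receptor kinase for the ligand GAS6, was 5.86, 5.90 and 5.93, then 4.92 and 4.61, in 8093, and 5.27, 5.63 and 5.57, then 6.78, 6.95 and 6.54, in Bin-2 (2.40 ± 0.26). Mrgpra1, a relative of the mast cell receptor above, was 7.80, 8.09 and 7.96, then 4.98 and 4.32, in 8093, and 7.47, 7.64 and 7.40, then 8.50, 8.54 and 8.85, in Bin-2 (4.43 ± 0.25). Mt2, a metallothionein that binds zinc, was 8.02, 8.04 and 7.95, then 6.63 and 7.40, in 8093, and 4.59, 5.38 and 4.88, then 7.42, 8.54 and 7.69, in Bin-2 (3.92 ± 0.51). Bin-2 began far below 8093 in Mt2 and ended just above it. Klrd1, the CD94 receptor of NK cells (4.51 ± 0.31, or 1.89 with the offset of 32), and Kmo, an enzyme of tryptophan breakdown (3.70 ± 0.30), were the other 2 named among those that rose in Bin-2.

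In the opposite class, Lif, leukaemia inhibitory factor, was 6.45, 6.17 and 6.90, then 7.74 and 8.17, in 8093, and 6.46, 6.75 and 7.00, then 5.33, 5.30 and 5.88, in Bin-2 (-2.68 ± 0.27). The ends of the lines lay on either side of all starts. Clnk, an adaptor used in mast cell signalling, rose by 3.00 in 8093 and fell by 0.77 in Bin-2 (-3.77 ± 0.24). Gfi1b, a repressor of the erythroid and megakaryocytic lineages, rose by 1.53 and fell by 0.92 (-2.45 ± 0.19). Ctla2b, a cysteine protease inhibitor, rose by 3.34 and fell by 0.75 (-4.09 ± 0.31). Cd96, an adhesion receptor of T and NK cells, rose by 1.01 and fell by 1.21 (-2.22 ± 0.28).

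The difference can also be read as the gap between the lines at the end less the gap at the start. At start, 2153 genes (10.8%) differed between the lines, 1154 higher (5.79%) and 999 lower (5.01%) in Bin-2, and the median absolute gap was 0.146. At end, 7018 genes (35.2%) differed, 3619 higher (18.2%) and 3399 lower (17%), and the median absolute gap was 0.268. In the same lines under lonafarnib the median absolute gap was 0.173 at start and 0.186 at end. Of the genes called at start, 855 were called in the same direction at end (39.7% of the start calls and 12.2% of the end calls), 561 in the opposite direction and 737 not at all.

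For some genes the difference arose after the midpoint on day 3, when the labels give a viability of 5 to 10% in both lines. The change from midpoint to end differed for 7313 genes (36.7%), not all of them called from start to end. Of these, 2986 were higher (15%) and 4327 lower (21.7%) in Bin-2. The share of higher calls was 40.8%, and 26.7% after the median of each array was subtracted. The 8093 midpoint arrays had a narrower spread of signals, an interquartile range of 3.03 on average against 3.44 to 3.55 in the 4 start and end groups, and its part in this count was not tested. Cpa3 had a mean of 12.62 in 8093 and 5.79 in Bin-2 at the midpoint, so 8093 was near its end level while Bin-2 had not risen, and the later change was higher in Bin-2 (4.72 ± 0.39). Fcer1a stood at 10.08 and 3.79 and Kit at 9.97 and 7.20. Rag1 (8.93 and 9.20), Ebf1 (9.97 and 9.69) and Igll1 (11.18 and 11.53) had not parted in this way at the midpoint, and their changes from midpoint to end differed by 4.73, 4.14 and 3.65. Gins1 had already fallen in 8093 at the midpoint (5.57 against 7.36 in Bin-2), and the difference of its later change did not pass the test (0.27 ± 0.25, adjusted p = 0.41). H2-Aa was high in both lines at the midpoint, with means of 8.89 in 8093 and 7.89 in Bin-2. From there it returned to 5.27 in 8093 and went on to 10.03 in Bin-2 (5.75 ± 0.46). Cd74 ran the same course, from 8.93 to 6.03 in 8093 and from 8.10 to 10.05 in Bin-2.

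**Figure D5:**
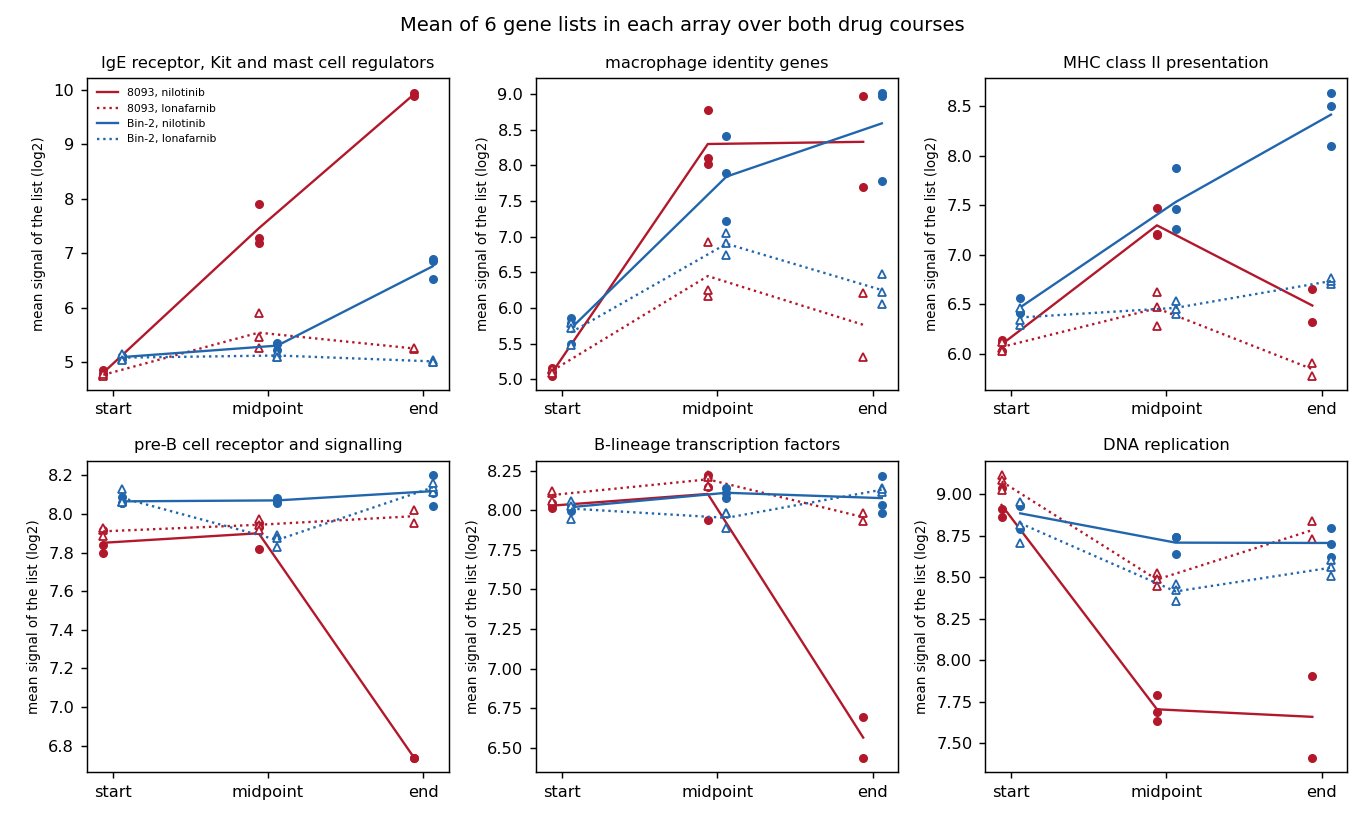
Mean log2 signal of 6 gene lists in every array of both drug courses, by time (horizontal), line (red 8093, blue Bin-2) and drug (solid line and filled points nilotinib, dotted line and open triangles lonafarnib), with lines through the group means. The list of the IgE receptor, Kit and mast cell regulators reached 9.92 in 8093 and 6.76 in Bin-2 at the nilotinib end, the pre-B list fell to 6.74 in 8093 only after the midpoint, and the MHC class II list rose to 8.41 in Bin-2 while it returned to 6.49 in 8093.

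The same subtraction for lonafarnib, a farnesyltransferase inhibitor given at 1 µM to 8093 until day 26 and at 0.25 µM to Bin-2 until day 30, asks how far the line difference was particular to nilotinib. The nilotinib line difference minus the lonafarnib one was called for 4302 genes (21.6%), 1948 higher (9.77%) and 2354 lower (11.8%). It was lower for 11 and higher for 1 of 17 mast cell protease and granule genes, and lower for 19 of 21 genes of the IgE receptor list. Nrn1 (-5.92 ± 0.43), Tek (-5.96 ± 0.35) and Gata2 (-3.87 ± 0.51) were among them. Kit differed by -2.97 ± 0.38, and under lonafarnib it went from 7.60 to 5.16 in Bin-2 and from 5.69 to 5.95 in 8093. Cpa3 had the opposite sign (1.54 ± 0.55, adjusted p = 0.0417), and under lonafarnib it went from 4.62 to 8.99 in 8093 and from 6.22 to 5.14 in Bin-2. Fcer1a did not pass (-1.67 ± 0.74, adjusted p = 0.117). The difference was higher for 14 and lower for 4 of 22 pre-B receptor genes, with Igll1 at 3.74 ± 0.27. Of 12 MHC class II genes 5 were higher and 3 lower, with H2-Ea at 4.90 ± 0.45. Among division genes, 22 of 30 replication and 15 of 26 mitosis genes were higher. Lyz2 (-2.40 ± 1.13, adjusted p = 0.146) did not pass.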

How the data were processed

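RNA of 34 cultures had been hybridised to Affymetrix Mouse Gene 1.0 ST arrays, and 11 of them carry the comparison reported here. The values are log2 signals per probe set, deposited as already normalized by the authors. Partek is named in the submitters' processing notes, while background correction and scaling were not stated in the labels. The values ran from 1.02 to 14.37, carry no detection p-value, and their precision is limited by the number of arrays.

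Probe sets were named through the platform's annotation: 21789 of 35557 carry 1 symbol, 1621 several and 12147 are not listed. Each of 19938 genes was represented by its probe set of highest mean signal. limma 3.58.1 in R 4.3.3 fitted 12 group means to all 34 arrays (22 residual degrees of freedom), the 7 comparisons were taken as contrasts, and p-values were adjusted by Benjamini-Hochberg over all genes, with calls at an adjusted p below 0.05. Errors are standard errors of that fit. Groups came from the sample labels. On simulated data with 200 changed genes, the procedure for the line difference recovered 7.46% of 1.5-fold, 71.6% of 2-fold and 100% of 4-fold changes. It made 6 false calls. Noise was drawn separately for each gene, and far fewer genes changed than were called in the data. These rates may therefore not hold for the real arrays.

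The comparison, its lists (35, with 724 of 783 entries measured) and the named genes were chosen with earlier results of these data known. Named were up to 12 genes each way with the largest called line difference and no overlap of start and end in the line with the larger change, up to 6 each way called in opposite directions, up to 3 called members each way per list, and 26 fixed genes, of which 25 were measured. Alternatives covered the arrays fitted, the prior, quantile and median scaling, dim genes, every probe set, an offset of 32, pooled starts, replicate blocks and each replicate left out. Promoter sequences are from RefSeq (GRCm38.p6) and were selected by gene symbol. Of the 19938 genes on the array, 19856 were matched to RefSeq genes by identifier.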

Additional observations from a re-analysis of the deposited data

Results flagged for a closer look

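Each result here drew attention through the test of the difference itself. The change from start to end under nilotinib differed between the lines for 6104 genes, the change from midpoint to end for 7313, and the nilotinib line difference departed from the lonafarnib one for 4302 (limma).

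In 124 genes the difference of the changes was called and the lines went in opposite directions, each change being called on its own, and the rule for named genes takes up to 6 of them each way, 12 in all. Among those that rose in Bin-2 and fell in 8093, the difference was 3.02 for Plet1, 4.43 for Mrgpra1, 2.40 for Axl, 3.92 for Mt2, 4.51 for Klrd1 and 3.70 for Kmo. Among those that fell in Bin-2 and rose in 8093, it was -2.68 for Lif, -2.22 for Cd96, -2.02 for the sterol oxidase gene Msmo1, -2.45 for Gfi1b, -3.77 for Clnk and -4.09 for Ctla2b. The groups hold 2 or 3 arrays, so single arrays that stand apart within a group were not tested for.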

How the results depend on the processing

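The line difference called 6104 of 19938 genes. Other settings over the same genes, apart from single arrays left out, gave 5429 (the 11 arrays alone) to 6624 (pooled starts). Every probe set as a feature gave 7841 of 35557, and leaving out dim genes gave 5876 of 10304. Leaving out single arrays gave 5150 (without the first 8093 end array) to 6110, 6971 to 8716 for 8093 end against start, 1664 to 1825 for the lines at start, 5680 to 6904 at end, 6175 to 7715 from midpoint to end, 3623 to 4472 for nilotinib against lonafarnib, and 1120 to 2170 for Bin-2 end against start. With the start arrays of both drug courses pooled, 3922 genes differed between the lines at start, against 2153. Between 77.7% and 98.3% of the 6104 genes were called in the same direction under each alternative. Of the 191 named genes, none of those called reversed in 21 settings, and 22 lost their call in at least 1. Bcl6, Mcl1, Bcr and Abcg2, which had no call, gained one in at least 1 setting. The uncalled Abcg2 also changed sign, with values from -0.01 to 0.75 over the settings. After median subtraction or without dim genes, the share of higher calls from midpoint to end was 26.7% or 27.3%, against 40.8%. The list medians of the MYC, p53, progenitor, BCL2, glycolysis, ERK, ER stress, interferon and macrophage lists changed sign in at least 1 setting. Without the second 8093 end array, 4 MHC class II, 4 BCL2 family and 5 Notch genes were lower (2, 2 and 3 in the report), 2 p53 targets were lower (4) and 4 glycolysis genes were higher (7). Counts of 1 or 2 genes in one direction also moved in the fibroblast, B-lineage, cholesterol, lysosome, transporter and galectin lists. The cause was not tested.

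The deviations of same-numbered starts and ends from their group means correlated between -0.129 and 0.0655, and those of differently numbered ones between -0.0817 and 0.129. The deviations of the 2 8093 end arrays mirror each other. Whether the replicate numbers pair the samples therefore cannot be decided from these values. With the title number as a replicate block the line difference called 5641 genes, Bin-2 end against start 1573, 8093 end against start 8195, midpoint to end 6483 and nilotinib against lonafarnib 3747; with the description letter, 5987, 1726, 8928, 7501 and 4112. No paired analysis was possible for the lines at a single time because the block, a course and its number, lies within 1 line. The missing detection p-values leave unknown which of the dimmest signals lie above background.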

Other observations

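Of 25 interferon-stimulated genes, 5 had a higher and 4 a lower change in Bin-2, shares close to the 15.6% and 15% over all genes. The higher count was 2 without the second Bin-2 end array and 3 without the second 8093 end array, and the lower count was 2 without the first 8093 end array. Gbp3, a guanylate-binding GTPase of the response to interferon gamma, differed by 2.16 and Ifit3 by 1.11, while Usp18, which removes ISG15 from proteins and damps the interferon receptor, differed by -1.63. Of 23 p53 targets, Btg2, an inhibitor of proliferation, differed by 1.56, and Apaf1, the scaffold of the apoptosome, by 0.76. Fyn, a SRC family kinase, differed by 1.67. Igf2bp3 and Lin28b, RNA-binding proteins of fetal blood progenitors, differed by 2.85 and 2.66.

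Genes that changed in both lines in the same direction and had no called line difference numbered 361 that rose and 197 that fell. Lgals3 is 1 of them.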
